A study of Mus musculus with 20 samples.

Results

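The genes described here are 43 genes that copy the DNA of the nucleus or serve the S phase of the cell cycle, in mouse whole tracheas 3 days after a chemical injury. They were chosen by name from textbook roles in replication, and every non-control probe of the array carrying a member's name or its older symbol was taken. Of the 43 genes, 42 had a probe on the array and 40 had at least 1 probe bright enough to test, out of 27670 gene names on the array and 17733 with a tested probe. Gins2, a subunit of the replicative helicase, had no probe under its name, and Orc1 and Ccne2 were too dim.

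Each of the 20 tracheas was hybridised to its own single-colour Agilent array, 5 per group. The groups were C57/Bl6 wild-type mice and Myd88KO mice, which lack the adaptor protein Myd88 in all cells, each either uninjured or given 2% polidocanol into the airway 3 days before collection, by the trachea per the labels and by the oropharynx per the methods. Polidocanol is a detergent that strips the surface epithelium of the airway. The labels give an age of 4 months and the methods 4 to 6 months, of mixed sex. The wild-type mice came from a separate colony and the knockouts were bred from knockout parents, so colony and genotype cannot be told apart. No mock-instilled group was named, so instillation and polidocanol cannot be told apart.

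Before S phase, the origin recognition complex (Orc1 to Orc6), Cdc6 and Cdt1 load the ring-shaped Mcm2 to Mcm7 helicase onto DNA, a step that geminin (Gmnn) blocks once it is done. Kinases, Mcm10, Cdc45 and the GINS complex then start the helicase. Primase and polymerase alpha begin each new strand, polymerases delta and epsilon extend it on the sliding clamp Pcna, which the Rfc complex loads, and Fen1 and Lig1 join the pieces. Ribonucleotide reductase (Rrm1, Rrm2), Tyms, Tk1 and Dut supply the nucleotides, and Chaf1a, Chaf1b, Uhrf1 and Dnmt1 restore nucleosomes and methylation behind the fork. Many of these genes are transcribed by E2F factors, which are freed when cyclin E and its partner kinase act on the retinoblastoma protein.

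Because the members were known to move together in earlier work on these arrays, the letters of their promoters were searched for the E2F site. RefSeq promoter windows (GRCm38.p6, 250 bases before to 50 after each start site) were held for 36 of the 43 members. The site was spelled as TTTCCCGC, TTTCGCGC, TTTGCCGC or TTTGGCGC on either strand. It occurred in at least 1 window of 15 of the 36 members (41.7%), beside 704 of 27025 genes in the table (2.6%). The shorter CCAAT box occurred in 52.8% of members and 41.1% of genes. The 14 tested members with an E2F spelling had a median log2 difference after wild-type injury of 1.48, and the 21 tested members without one in their windows had 1.45. A match is a description of letters and not of binding. The 200 bases before the start site are shown for Mcm6 and Mcm5, which held the most matches there, and for Cdc6 and Uhrf1, both among the members with the largest differences. Mcm10 and Ccne1, whose differences were larger, held no match in their windows. Uhrf1 held its match in only 1 of its 2 windows. Capitals mark the E2F spelling, and each run reads 5′ to 3′ along the gene.

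Mcm6 (chr1:128359706-128359905, minus strand): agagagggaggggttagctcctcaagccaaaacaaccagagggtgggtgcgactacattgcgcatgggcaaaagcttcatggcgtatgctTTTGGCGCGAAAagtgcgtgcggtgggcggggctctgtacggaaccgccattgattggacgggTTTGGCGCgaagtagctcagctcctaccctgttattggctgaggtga
Mcm5 (chr8:75109309-75109508, plus strand): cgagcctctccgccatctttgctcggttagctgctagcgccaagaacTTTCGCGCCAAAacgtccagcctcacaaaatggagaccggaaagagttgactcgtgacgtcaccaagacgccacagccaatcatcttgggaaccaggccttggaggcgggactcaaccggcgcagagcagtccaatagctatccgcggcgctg
Cdc6 (chr11:98907951-98908150, plus strand): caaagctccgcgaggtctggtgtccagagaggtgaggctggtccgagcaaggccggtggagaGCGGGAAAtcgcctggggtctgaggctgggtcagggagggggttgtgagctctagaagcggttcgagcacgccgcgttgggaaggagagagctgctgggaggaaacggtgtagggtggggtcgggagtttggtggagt
Uhrf1 (chr17:56304113-56304312, plus strand): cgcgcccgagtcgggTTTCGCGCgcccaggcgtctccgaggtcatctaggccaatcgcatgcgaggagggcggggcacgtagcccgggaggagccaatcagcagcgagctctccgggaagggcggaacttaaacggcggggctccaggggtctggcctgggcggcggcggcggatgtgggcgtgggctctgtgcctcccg

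Mcm6 carried 3 matches, whose first bases lay at positions -110, -106 and -47 from the start site, of which the first pair overlap. Mcm5 carried overlapping matches at -153 and -149. Cdc6 carried 1 at -138 and Uhrf1 1 at -185.

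After injury the replication genes rose together in wild-type tracheas. All 40 tested genes were higher on average in injured than in uninjured wild-type tracheas, 23 of them past an adjusted p of 0.01 (limma, Benjamini-Hochberg over all 26063 tested probes), and none fell. By probe, 30 of 52 member probes rose, beside 3.24% of all tested probes that rose in this comparison. The median difference over the 40 genes was 1.45 on the log2 scale, a fold of 2.73, while the median over all tested probes was 5.9e-05. In 29 of the 40 genes all measured injured tracheas lay above all measured uninjured ones, and in 40 of 52 probes, beside 7.89% of all tested probes. For 2 of the 40 probes, those of Mcm6 and the dimmer of Dut, a spot had been left out as an outlier and 4 injured tracheas were measured. At an adjusted p of 0.05, 30 genes and 41 probes rose, beside 7.74% of tested probes. Values below are log2 signals relative to the 75th percentile of the same array, listed in the order of replicates 1 to 5, and 1 probe per gene, the brightest, stands for it unless probes are named. Whole trachea was measured, so a larger share of dividing cells and more RNA per cell cannot be told apart.

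**Figure D1:**
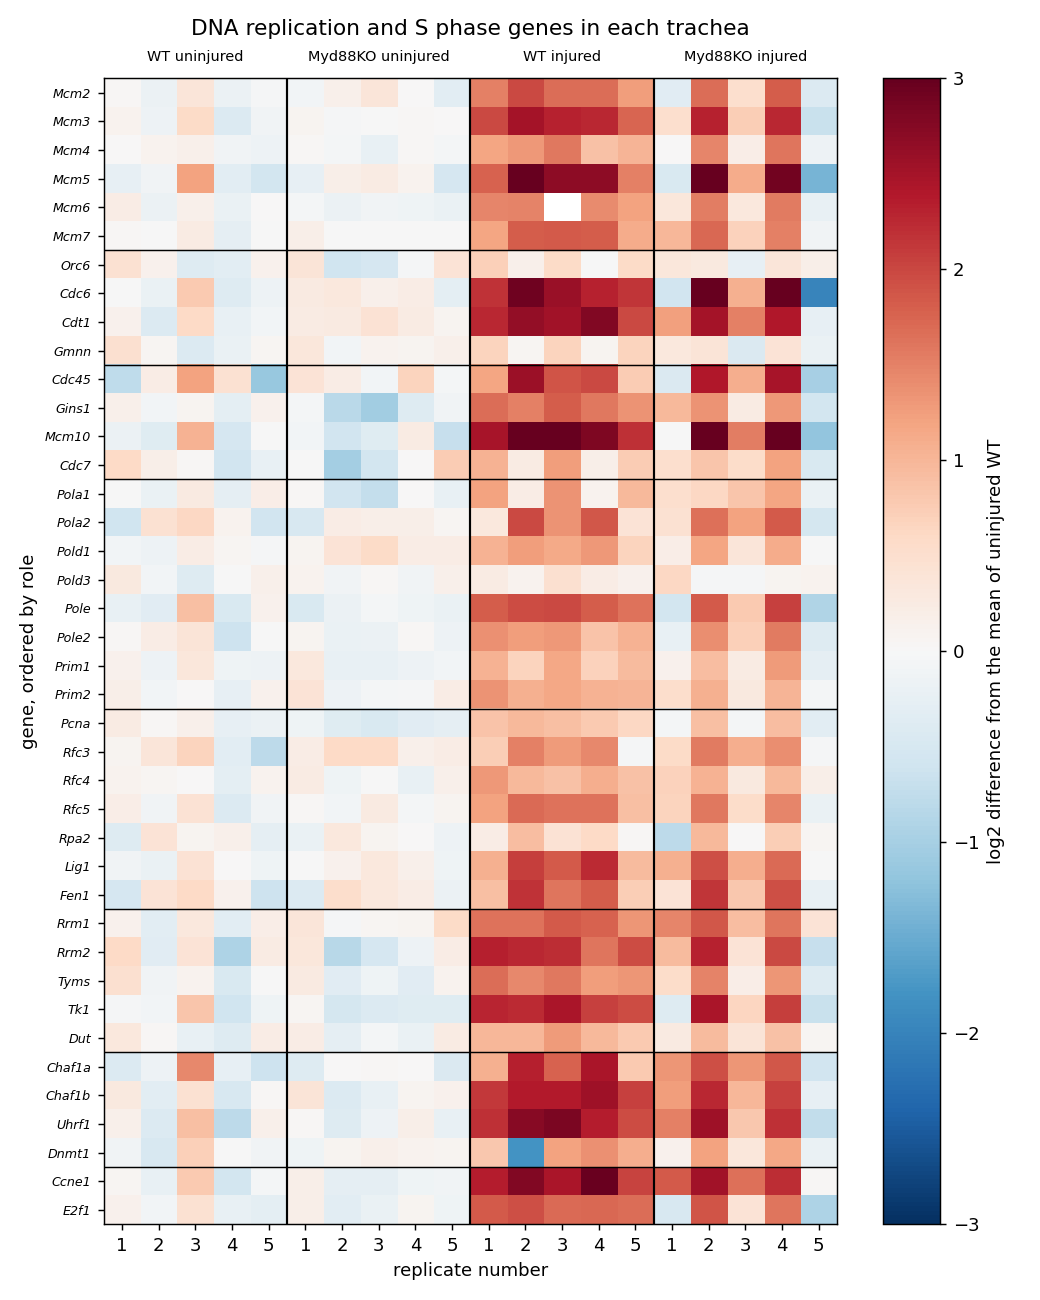
Rows are the 40 tested genes ordered by role, with lines between roles, and columns are the 20 tracheas by group and replicate number; colour is the log2 difference from the mean of uninjured wild-type tracheas, and the blank cell is a spot left out as an outlier. All 5 injured wild-type columns are red for most genes, while the injured Myd88KO columns range from red in replicates 2 and 4 to pale blue in replicate 5.

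Of the 6 subunits of the MCM helicase, 5 rose. Mcm3 stood at 0.72, 0.45, 1.18, 0.20 and 0.52 in uninjured wild-type tracheas and at 2.60, 3.10, 2.94, 2.88 and 2.36 in injured ones. The groups did not overlap, and the difference was 2.16 ± 0.40 (SE, adjusted p = 0.0020). Mcm7 went from 1.85, 1.81, 2.06, 1.54 and 1.79 to 2.99, 3.63, 3.66, 3.63 and 2.93. Its lowest injured trachea lay above its highest uninjured one, with a difference of 1.56 ± 0.26 (adjusted p = 0.00095). Mcm2, Mcm6 and Mcm4 rose by 1.62, 1.40 and 1.19. Mcm5 was higher by 2.34 but did not pass (adjusted p = 0.022), its 5 uninjured values running from -1.11 to 0.64, with the highest in replicate 3. The second probe of Mcm3 gave 2.06 with an adjusted p of 0.020.

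Among the licensing factors that load the helicase, Cdt1 rose. It measured 0.49, -0.05, 0.96, 0.15 and 0.29 in uninjured and 2.63, 3.00, 2.88, 3.14 and 2.35 in injured wild-type tracheas. The change was 5.40-fold, or 2.43 ± 0.36 on the log2 scale (adjusted p = 0.00049). Its inhibitor Gmnn differed by 0.43 (adjusted p = 0.18) with overlapping groups. Cdc6 differed by 2.43 on its brighter probe and 1.78 on the other (adjusted p = 0.023 and 0.015), and its groups did not overlap on either. The brighter probe was well above background on 4 of 5 uninjured and 5 of 5 injured wild-type tracheas. For the dimmer probe these counts were 1 of 5 and 5 of 5, so most of its uninjured values lie near background. It was above background on 12 arrays in all, and passed the filter mainly through the injured groups. Orc6 differed by 0.40 (adjusted p = 0.26). Orc1, the large ATPase subunit of the origin recognition complex, was well above background on 0 of 5 uninjured and 5 of 5 injured wild-type tracheas, which gives a level at least 2.19-fold higher after injury. It was well above background on 0 of 5 uninjured and 3 of 5 injured Myd88KO tracheas. Its probe was above background on 8 arrays in all and was not tested.

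Of the factors that fire origins, Mcm10 and Gins1 rose. Mcm10, which helps the helicase start, had the largest difference of the 40 genes, at 2.73 ± 0.64 (adjusted p = 0.0089), a 6.61-fold change. Its values were -2.13, -2.31, -0.91, -2.46 and -1.97 in uninjured and 0.52, 1.06, 1.18, 0.85 and 0.25 in injured wild-type tracheas, without overlap. Gins1, a GINS subunit, rose by 1.59 and 1.72 on its 2 probes. Cdc45, the helicase cofactor, differed by 1.68 (adjusted p = 0.067) and was well above background on 2 of 5 uninjured and 5 of 5 injured wild-type tracheas. Cdc7, the kinase that triggers firing, differed by 0.70 (adjusted p = 0.19).

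The polymerases and primase were split. Pole, the catalytic subunit of polymerase epsilon, rose by 1.84, Prim2, the large primase subunit, by 1.12 and Pold1, the catalytic subunit of polymerase delta, by 1.08 with a second probe at 1.00. Prim1, Pole2, Pola2 and Pola1 differed by 0.90, 1.17, 1.19 and 0.77, with adjusted p-values of 0.014, 0.015, 0.066 and 0.064. On its brightest probe, Pold3, an accessory subunit of polymerase delta, differed by 0.23 (adjusted p = 0.34), the smallest difference of the 40 genes, and its other probes are described below.

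In the group of clamp, clamp loader and strand-joining genes, 3 of 7 rose, namely the DNA ligase Lig1 by 1.63 and the loader subunits Rfc5 by 1.41 and Rfc4 by 1.03. Pcna, the sliding clamp, stood at 3.06, 2.85, 2.96, 2.58 and 2.63 in uninjured and 3.67, 3.80, 3.71, 3.61 and 3.44 in injured wild-type tracheas. The groups did not overlap, yet the adjusted p of its 0.83 difference was 0.012, just outside the threshold. The flap nuclease Fen1 and the loader subunit Rfc3 differed by 1.44 and 0.98 (adjusted p = 0.022 and 0.056), and the single-strand binding subunit Rpa2 by 0.44 (adjusted p = 0.30).

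All 5 genes of nucleotide supply rose. Rrm1, the large subunit of ribonucleotide reductase, rose by 1.64 ± 0.23 (adjusted p = 0.00031). Its values went from 1.58, 1.14, 1.78, 1.13 and 1.66 to 3.08, 3.08, 3.30, 3.22 and 2.79. Rrm2, the small subunit, rose by 2.07 ± 0.43 (adjusted p = 0.0043), from -0.32, -1.27, -0.52, -1.84 and -0.68 to 1.41, 1.34, 1.29, 0.68 and 1.04. Neither gene's groups overlapped. The salvage kinase Tk1, the thymidylate synthase Tyms and the dUTPase Dut rose by 2.19, 1.45 and 1.00. The second tested probes of Tyms and Dut gave 1.45 and 1.04.

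In chromatin assembly and methylation, Chaf1b and Uhrf1 rose. Chaf1b, a subunit of the histone chaperone CAF-1, rose by 2.30 ± 0.34 (adjusted p = 0.00046), from 0.28, -0.35, 0.42, -0.50 and 0.01 to 2.09, 2.36, 2.35, 2.51 and 2.03. Uhrf1, which brings Dnmt1 to newly made DNA, rose by 2.41 and 2.44 on its 2 probes. Chaf1a, which encodes another subunit of CAF-1, differed by 1.68 (adjusted p = 0.018), with 1 uninjured trachea, replicate 3, at 0.11 and the other 4 between -1.97 and -1.49. The maintenance methylase Dnmt1 differed by 0.54 (adjusted p = 0.48). Its injured wild-type values were 0.55, -2.06, 0.95, 1.11 and 0.82, so replicate 2 lay far below the rest and below every uninjured trachea.

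Both tested G1/S control genes rose. Ccne1, cyclin E1, had the smallest adjusted p of the members, 0.00028, with a difference of 2.52 ± 0.35 and a 5.74-fold change. Its uninjured values were -0.81, -1.10, -0.10, -1.43 and -0.94 and its injured values 1.49, 1.91, 1.57, 2.09 and 1.16. E2f1, an activating E2F factor, rose by 1.77 (adjusted p = 0.0052), while its second probe gave 1.28 (adjusted p = 0.023). The probes of Ccne2 were well above background on 5 and 3 of the 20 arrays, 0 of them uninjured, and were not tested.

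**Figure D2:**
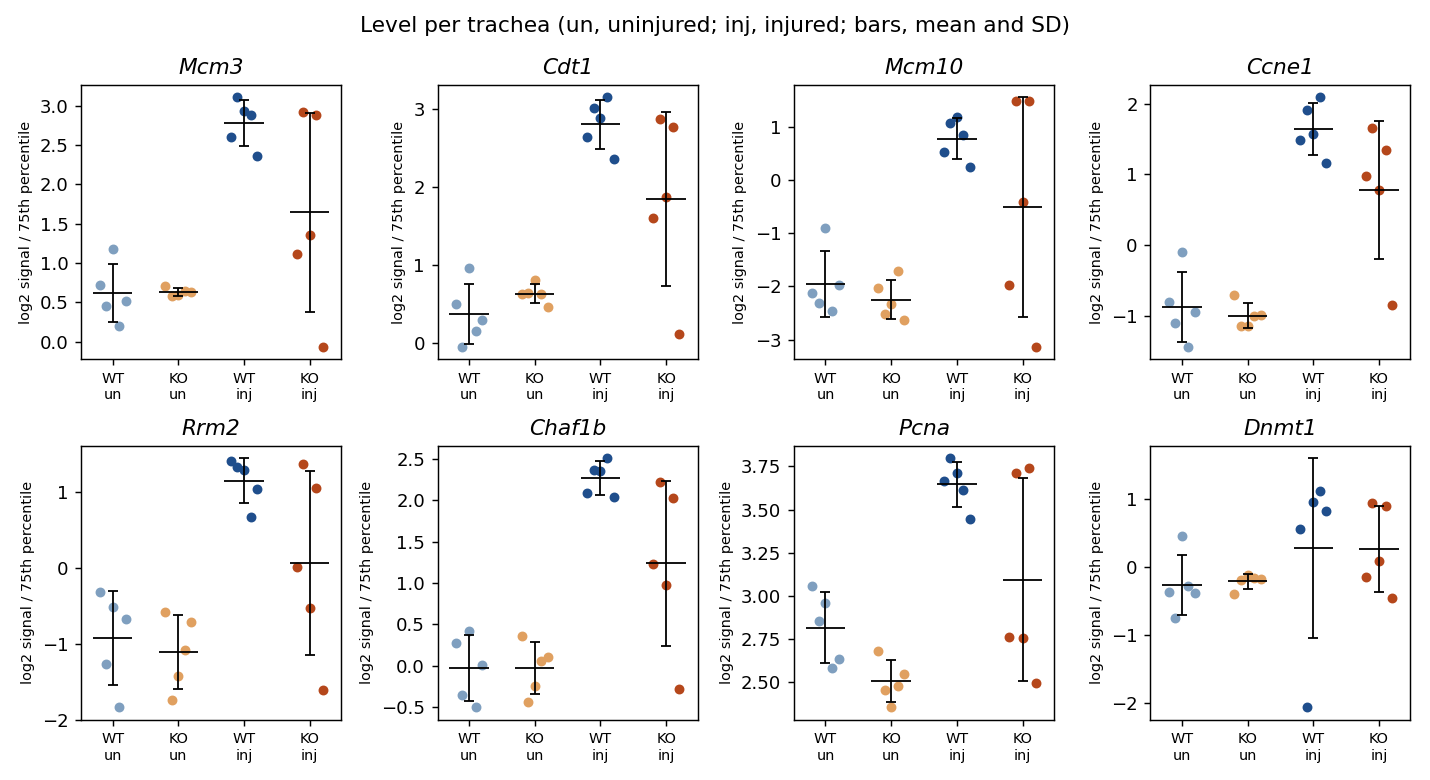
Each dot is 1 trachea, black bars are the mean and SD of 5, and the y axis is the log2 signal relative to the array's 75th percentile. Injured wild-type values lie above all uninjured wild-type values for Mcm3, Cdt1, Mcm10, Ccne1, Rrm2, Chaf1b and Pcna, and Dnmt1 shows 1 injured wild-type trachea at -2.06.

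The call depended on single tracheas more than the direction did. Leaving out uninjured wild-type replicate 2, uninjured wild-type replicate 4 or injured wild-type replicate 1 lowered the count of member probes from 30 to 18 in each case. The difference was positive for all 52 member probes under every alternative that gave a value. Within the arrays scanned on the first of 2 days (3 per group) the median difference over the 40 genes was 1.55, with 40 of 40 positive, and on the second day (2 per group) it was 1.21, with 39 of 40 positive. Within the 5 slides, each holding 1 trachea of every group, the medians ran from 1.18 to 1.76.

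The library labelled injured Myd88KO replicate 5 stood at the level of uninjured tracheas for the replication genes and for the mitosis genes. Whether that trachea was injured as labelled cannot be told from the files. The members' calls and median differences are therefore also given without it. All other values from injured Myd88KO tracheas include it unless stated, among them those of the further gene lists. With it, the injury comparison in Myd88KO tracheas gave smaller differences than in wild-type and no call at 0.01. The differences were positive in 39 of 40 genes, with a median of 0.77 on the log2 scale and a fold of 1.71, and 0 of 52 probes passed, beside 0.134% of all tested probes that rose. At an unadjusted p of 0.05, 27 of the 40 genes were higher, beside 7.32% of all tested probes. At an adjusted p of 0.05 (limma), 5 genes rose, beside 1.27% of tested probes: Ccne1 by 1.78 (adjusted p = 0.011), Rrm1 by 1.05 (0.020), Gins1 by 1.15 (0.034), Chaf1b by 1.27 (0.046) and Rfc4 by 0.63 (0.047). For 0 of the 40 genes did the 5 injured tracheas lie above the 5 uninjured ones, but for 1 of the 52 probes, the dimmer of Ccne1, they did (lowest injured -4.25, highest uninjured -4.43), beside 1.15% of tested probes. That probe was well above background on 4 of 5 tracheas in each Myd88KO group, so this gap lies near background.

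The injured Myd88KO tracheas differed widely among themselves. The mean over the 40 genes, relative to uninjured wild-type tracheas, was 0.40, 1.65, 0.63, 1.61 and -0.38 in replicates 1 to 5. In injured wild-type tracheas it was 1.38, 1.58, 1.66, 1.52 and 1.15. Replicates 2 and 4 thus lay within the wild-type injured range, replicate 3 between the injured and uninjured wild-type groups, replicate 1 just under the highest uninjured trachea, and replicate 5 below all 10 uninjured tracheas. Uninjured values ran from -0.28 to 0.41 in wild-type, with replicate 3 highest, and from -0.13 to 0.07 in Myd88KO. Of the 40 genes, 37 were highest in replicates 2 and 4 and 36 lowest in replicate 5, while replicate 3 lay above replicate 1 in 24. Cdt1, the licensing factor, read 1.59, 2.87, 1.87, 2.76 and 0.11 in the injured Myd88KO tracheas against 0.63, 0.63, 0.80, 0.62 and 0.46 in the uninjured ones. Mcm10 read -1.97, 1.49, -0.42, 1.48 and -3.13, and E2f1 -3.35, -0.99, -2.46, -1.26 and -3.79. Ccne1 was less spread in replicates 1 to 4, at 0.97, 1.65, 0.78 and 1.35, with replicate 5 at -0.85.

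**Figure D3:**
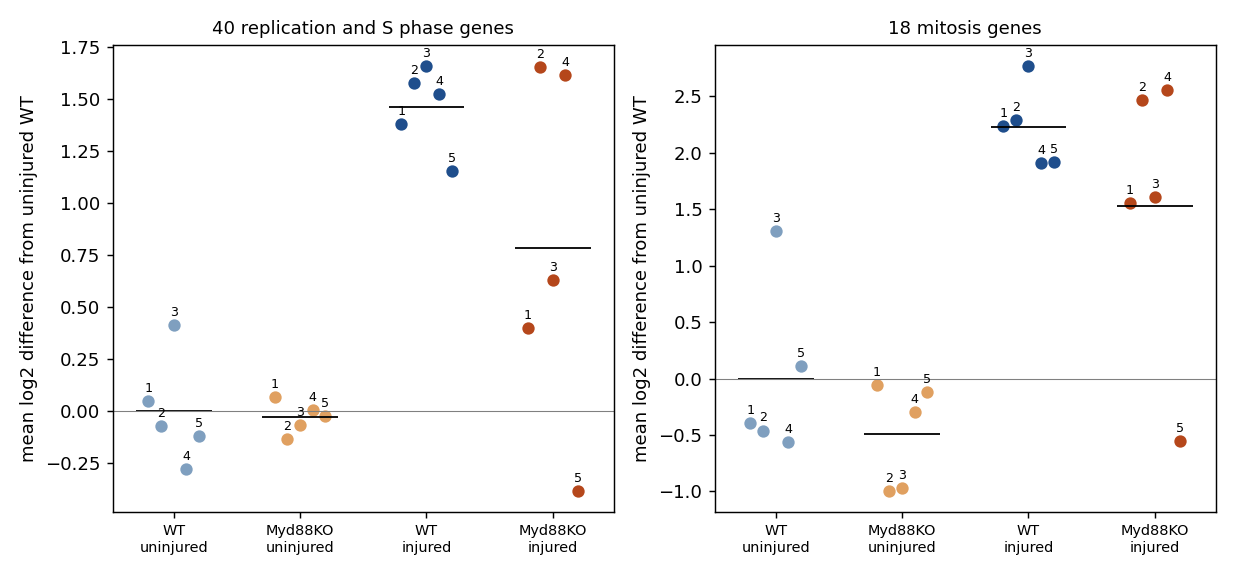
Each dot is 1 trachea labelled with its replicate number, the y axis is the mean log2 difference from uninjured wild-type over the tested genes of a list, and lines are group means. The injured Myd88KO tracheas spread from -0.38 to 1.65 for the replication genes, and for the mitosis genes replicate 5 is also at an uninjured level.

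Over all 20 tracheas the 780 pairs of members had a median Pearson r of 0.84, as a description of values that share arrays and groups. Within the injured Myd88KO group it was 0.91, within the injured wild-type group 0.46, and within the uninjured wild-type and Myd88KO groups 0.55 and 0.17, each over 5 tracheas. Mcm3, Mcm6 and Rfc5 had the highest median r with the other members, at 0.94, 0.93 and 0.92, and Pold3 the lowest, at 0.27.

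Without injured Myd88KO replicate 5, 17 member probes and 14 of the 40 genes rose past 0.01 in Myd88KO tracheas, beside 1.87% of tested probes, and the median difference was 1.08. Among those genes were Ccne1 (2.19, adjusted p = 2.3e-05), Cdt1 (1.65, adjusted p = 0.00046) and Chaf1b (1.64, adjusted p = 0.00047). On the first scanning day, which held replicates 2, 3 and 4, the median difference was 1.32 with 40 of 40 genes higher, and on the second, which held replicates 1 and 5, it was -0.06 with 18 of 40 higher. Weighting arrays by their fit (arrayWeights) called 29 member probes, beside 2.99% of all tested probes that rose under the same weights, with weights of 0.319 and 0.321 for injured Myd88KO replicates 1 and 5.

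The difference between the genotypes' responses was then tested directly. The Myd88KO change was smaller in 39 of 40 genes, Pola1 being the exception, and the median ratio of the Myd88KO to the wild-type log2 change was 0.57. Over the 844 probes of the array that rose in wild-type tracheas and were chosen for that, the ratio was 0.45, and 812 had the smaller change in Myd88KO. No member's difference of responses passed (smallest adjusted p = 0.39, limma), as was the case for 0 of 26063 probes, or 0% of those tested. At an unadjusted p of 0.05, 5 of 40 members had a smaller response in Myd88KO, beside 6.96% of all tested probes. The interval of the difference (95%) was -2.29 to -0.14 for Cdt1, -2.33 to -0.07 for E2f1, -1.42 to -0.21 for Pold1, -2.03 to -0.03 for Chaf1b and -1.19 to -0.08 for Prim2. These 5 were picked by that threshold, so their unadjusted intervals leave out 0 by selection. The second tested probe of E2f1 gave -1.86 to 0.25, which holds 0, and that of Pold1 -1.41 to -0.015. For Mcm10 the interval was -2.89 to 0.91 and for Ccne1 -1.76 to 0.28, so neither an equal response nor a far smaller one lay outside it. Without injured Myd88KO replicate 5, the difference of responses was negative in 35 of 40 members, with a median of -0.35, and with it the median was -0.58. In the fit without it, 2 members were below an unadjusted p of 0.05 in either direction (smallest adjusted p = 0.43, limma). The share of all tested probes below it was not counted there.

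**Figure D4:**
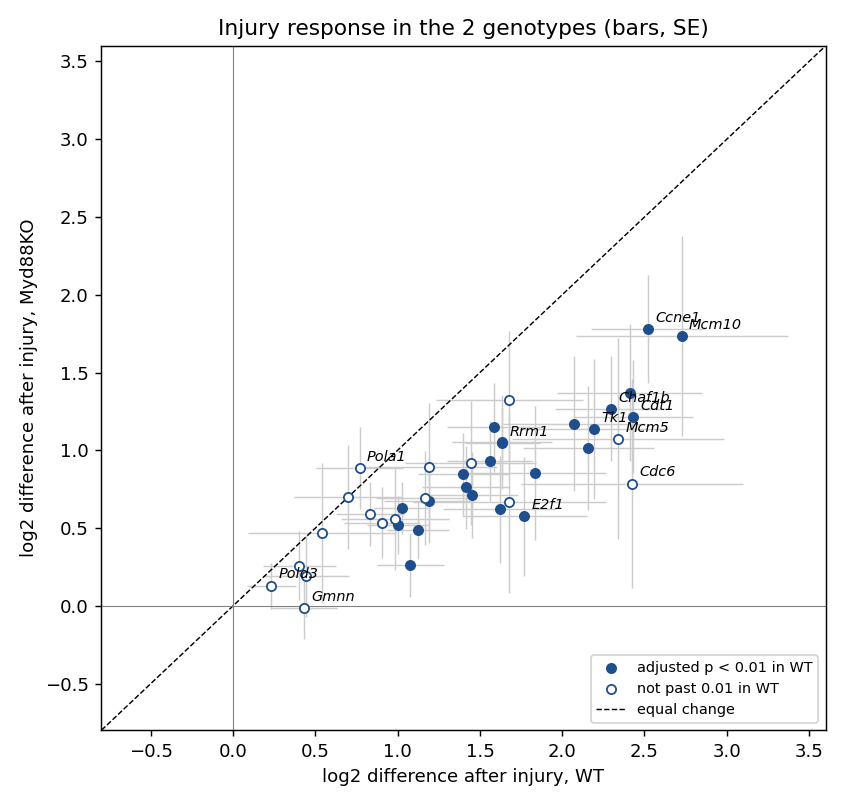
Each point is 1 of the 40 genes, with its log2 difference after injury in wild-type on the x axis and in Myd88KO on the y axis, and bars are standard errors; filled points passed an adjusted p of 0.01 in wild-type. Of the 40 points, 39 lie under the dashed line of equal change.

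Between the genotypes without injury, the members were level on their brightest probes. The median difference of Myd88KO from wild-type over 40 genes was -0.0056, the range was -0.49 to 0.36, and 0 genes passed an unadjusted p of 0.05. At that threshold 996 of all 26063 tested probes were higher and 462 lower, so 0 of 40 was close to the share over the array. Between injured tracheas all 40 genes were lower in Myd88KO, with a median of -0.56, and 0 passed an adjusted p of 0.01 (smallest 0.16, limma). At an unadjusted p of 0.05, 21 of the 40 were lower, beside 8.09% of all tested probes. The largest differences were those of Cdc6, Tk1, Mcm5 and Mcm10, at -1.50, -1.38, -1.31 and -1.28, with adjusted p-values of 0.36, 0.20, 0.42 and 0.42. Without replicate 5 the median was -0.37 and 35 of 40 were lower. In that fit 9 of the 40 were below an unadjusted p of 0.05 in either direction (smallest adjusted p = 0.35, limma). The share of all tested probes below it was not counted there.

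Pold3 was the exception between genotypes, and its 3 probes disagreed. Probes A_52_P271244 and A_51_P490397 share 59 of their 60 positions on chromosome 7 in the coordinates of the files, whose build is not stated (chr7:96129680-96129739 and chr7:96129681-96129740). Across the 5 uninjured tracheas the first probe read -0.09, -0.32, -0.65, -0.31 and -0.37 in wild-type and -1.71, -2.28, -2.14, -2.17 and -1.85 in Myd88KO. The second read -2.07, -2.74, -2.75, -2.56 and -2.64 in wild-type and -0.69, -1.23, -1.05, -0.996 and -0.88 in Myd88KO. Neither pair of groups overlapped, and the directions were opposite. The differences were -1.68 ± 0.25 (adjusted p = 0.00098) and 1.58 ± 0.18 (adjusted p = 4.1e-05), beside 0.384% of all tested probes called in either direction. After injury they were -1.80 (adjusted p = 0.00048) and 1.096 (adjusted p = 0.0034), beside 0.38% of tested probes. The brightest probe, A_52_P78383 at chr7:96128410-96128469, differed by 0.02 and -0.09 (adjusted p = 1.00 and 0.86). Injured Myd88KO replicate 1 read -0.04 on the first probe, apart from the other 4 injured knockouts at -2.03 to -1.52, and -0.55 on the second, within their range. Of 101 tested probes within 2 Mb of the pair in the files' positions, 4 differed between uninjured genotypes, namely both Pold3 probes and probes of Mogat2 and Rab6a. The nearby member Rrm1, on the same chromosome, differed by 0.21 (adjusted p = 1.00). A Pold3 level thus had no single direction between the genotypes, and the letters of the probes were not analysed here.

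**Figure D5:**
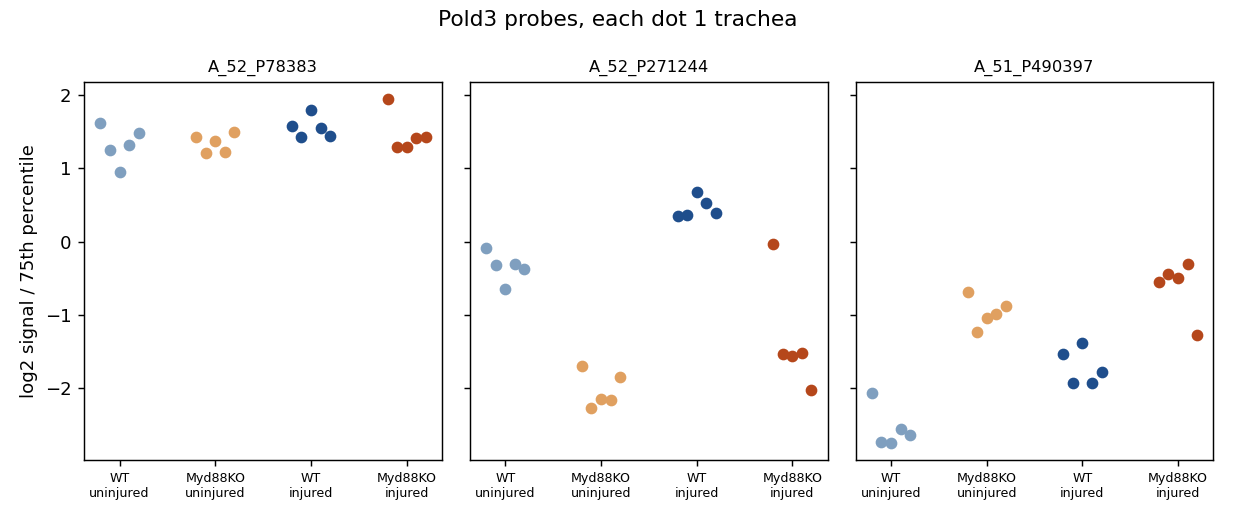
Each panel is 1 Pold3 probe, each dot 1 trachea, and the y axis the log2 signal relative to the array's 75th percentile. The middle and right probes, which share 59 positions, are offset between genotypes in opposite directions, while the left probe shows no offset.

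After injury in wild-type tracheas, the probe A_51_P490397 also rose by 0.84 (adjusted p = 0.0059), which adds Pold3 as a 24th gene with a called probe, while A_52_P271244 gave 0.81 (adjusted p = 0.042). Of the 11 members with several tested probes, 8 gave the same call on every probe in this comparison, and Mcm3, Pold3 and E2f1 did not.

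Other genes of the pathway, taken from lists of textbook names, were set beside the members. Of 38 tested further replication genes, 10 rose and 0 fell after wild-type injury, with a median fold of 1.41. Of all tested probes 3.24% rose in this comparison. Among those that rose, the largest changes were in Dtl, which directs Cdt1 to destruction in S phase (2.52), the fork protein Timeless (2.29), the clamp loader genes Chtf18 and Dscc1 (2.19 and 2.14) and the histone chaperone Asf1b (1.93). The dimmer Timeless probe gave 1.11 and was not called (adjusted p = 0.017, limma). In Myd88KO tracheas 2 of the 38 rose, beside 0.134% of all tested probes. They were Dtl by 2.40 (adjusted p = 0.0056) and the fork protein Wdhd1 by 1.98 (adjusted p = 0.0021). A dimmer tested probe of Wdhd1 gave 1.12 there and was not called (adjusted p = 0.031, limma). Of 28 tested further G1/S regulators, 7 rose in wild-type and 0 in Myd88KO tracheas, beside 3.24% and 0.134% of all tested probes. At an adjusted p of 0.05 (limma), 7 rose in wild-type and 5 in Myd88KO, beside 7.74% and 1.27%. The repressor E2f7 rose by 3.41 in wild-type and differed by 2.86 in Myd88KO (adjusted p = 0.011), and Ccna2, cyclin A2, rose by 2.32, E2f8 by 1.95, Cks1b by 1.57 and Skp2 by 1.28. Cdkn1a, the p21 cell cycle inhibitor, differed by 0.25 (adjusted p = 0.63).

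All 18 tested genes of mitosis, the step after S phase, were higher on average after injury in both genotypes. The median folds were 4.94 in wild-type and 4.24 in Myd88KO, from unlike starting levels. All 18 were lower on average in Myd88KO than in wild-type tracheas, with a median of -0.46 uninjured and -0.68 injured. Of these differences between genotypes 0 were called. Past an adjusted p of 0.01 (limma), 11 rose in wild-type and 1 in Myd88KO, beside 3.24% and 0.134% of all tested probes. At an adjusted p of 0.05, 15 and 10 rose, beside 7.74% and 1.27%. Plk1, Ccnb1, Birc5, Ccnb2 and Cdk1, regulators of mitotic entry and division, rose by 2.96, 2.77, 2.60, 2.59 and 2.54 in wild-type. In Myd88KO the kinase Aurka rose by 2.23 (adjusted p = 0.0052), and Ccnb1 and Cdk1 differed by 2.71 and 2.81 (adjusted p = 0.011 and 0.020). The proliferation antigen Mki67 differed by 1.53 and 2.10 (adjusted p = 0.13 and 0.078). By trachea, the mean of the 18 genes was 1.56, 2.47, 1.61, 2.56 and -0.56 in injured Myd88KO replicates 1 to 5, and 1.91 to 2.77 in injured wild-type tracheas.

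Some markers of other cells moved with the members. Of 6 myeloid genes, the macrophage genes Cd68, Adgre1 and Csf1r rose in wild-type tracheas, by 3.27, 2.03 and 1.55. The rest of the 6 were not called, and 1 was slightly lower, at -0.06. Of 4 tested neutrophil genes, all higher on average, the receptor Csf3r rose by 4.05. These calls stand beside 3.24% of all tested probes that rose. The mean of the myeloid list was 1.12 to 2.35 in injured wild-type tracheas and -0.17 to 0.14 in uninjured ones, and in injured Myd88KO replicates 1 to 5 it was 0.43, 1.82, 0.45, 1.92 and -0.47. The summed level of the list, in units of the array's 75th percentile, was 299 to 533 in uninjured and 322 to 512 in injured wild-type tracheas. That of the neutrophil list was 2.49 to 33.1 and 14.4 to 256. Secretory markers went the other way. In wild-type tracheas 3 of 5 fell after injury, beside 528 of all 26063 tested probes that fell. The log2 differences were -7.91 for Scgb1a1, -5.77 for Scgb3a2 and -2.24 for Bpifa1. The summed level of the list was 1539 to 2767 uninjured and 716 to 892 injured. Over the injured Myd88KO replicates the secretory mean was -1.05, -3.61, -2.33, -3.41 and 0.16. Of 5 ciliated cell markers, the axonemal dynein Dnah5 fell by 3.94 in wild-type tracheas, beside the same 528 of 26063 probes. The 5 basal cell markers had 0 calls. Their differences in wild-type tracheas ran from -0.22 to 1.14, with a median of 0.34 and 1 of 5 lower, and Krt14 was the highest (adjusted p = 0.20). The part of a changed cell makeup in the replication genes was not tested. Among lymphocyte markers, Rag2 and Pax5 were above background on 0 of 20 arrays, and 0 of 5 thymocyte and 0 of 2 B cell genes tested were called in any comparison of injury. Skeletal muscle, thyroid, adipocyte, cartilage and smooth muscle markers had 0 calls after injury in either genotype.

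On the arrays as a whole, between 61.3% and 65.5% of spots passed the scanner's background test in uninjured wild-type tracheas, with 59.1% to 67.8% in uninjured Myd88KO, 61.7% to 66.3% in injured wild-type and 57.5% to 67.1% in injured Myd88KO ones, where replicate 5 was lowest. The Myd88 probe itself was well above background on all 20 arrays and was lower in Myd88KO by 0.21 uninjured (adjusted p = 1.00) and 0.77 injured (adjusted p = 0.0082). Whether it lies in the deleted part is not given in the sources used here, so it does not check the genotype labels.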

How the data were processed

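Total RNA of 20 whole tracheas was hybridised to single-colour Agilent arrays and read with Agilent Feature Extraction 9.5.1.1. The authors deposited scanner files holding each spot's processed intensity, with background subtracted, and a value table of the same intensity (ratio of table to scanner value 0.995 to 1.00), used as an alternative. No scaling between arrays had been applied. The members and the gene lists were chosen with earlier results of these data known.

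In R 4.3.3, 1639 control spots of 45018 and 1960 outlier values were left out, spots of 1 probe were averaged to 41174 probes, and log2 intensities were expressed relative to the array's 75th percentile. The 26063 probes well above background on at least 10 of 20 arrays were fitted in limma 3.58.1 with the 4 groups, with Benjamini-Hochberg adjustment over all these probes in each comparison. A call is an adjusted p under 0.01. The fit was tested on simulated data. List genes were named by accession, symbol or older symbol in the RefSeq table (22951, 6659 and 3109 probes), and the remaining 8455 kept the name on the array. The named genes were every member, Myd88, Mki67 and Cdkn1a, the defining cell markers, and the called genes of each pathway list with the largest change. Wdhd1, Aurka and single markers were named for their calls after their values were seen. For a probe below background in 1 group, a lower bound of the fold was taken from the dimmest probe well above background on each array.

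The replicates are separate animals per the methods. Replicate numbers equalled the slide, each slide holding 1 array of every group, and were not paired by the labels. The correlation of same-numbered deviations was 0.25 to 0.48 in all 5 pairs of the uninjured genotypes, so the numbers pair the arrays there. Because same-numbered arrays share a slide, this does not tell whether the animals were paired. It ran from -0.03 to 0.40 for wild-type injury, 0.0058 to 0.46 for Myd88KO injury and -0.22 to 0.33 between injured genotypes, where not every pair passed 0.1. The unblocked fit was kept, with the block as an alternative. The number of arrays limits the precision. The alternatives were normexp background correction, quantile scaling, another percentile, other filters, blocks for slide and scanning day, array weights, other tests, a looser threshold and leaving out each replicate. Within-day and within-slide values were added after the data were seen.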

Additional observations from a re-analysis of the deposited data

Results flagged for a closer look

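Among the 160 sets of 5 tracheas (40 genes in 4 groups), 12 held a trachea far from the other 4, by a gap over 0.71 of the group's range, and chance alone marks about 1 set in 20. Values are log2 signals relative to the array's 75th percentile, with the nearest other trachea of the group given after each.

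Of the 12, 5 were uninjured Myd88KO replicate 1, which was high for Mcm7 (1.99, next 1.81), Prim1 (0.84, next 0.43) and Tk1 (0.16, next -0.26) and low for Pola2 (-3.78, next -3.25) and Dnmt1 (-0.40, next -0.19). Uninjured wild-type replicate 3 was high for Mcm5 (0.64, next -0.66) and Chaf1a (0.11, next -1.49). Uninjured wild-type replicate 4 was low for Rfc4 (0.52, next 0.83), and uninjured Myd88KO replicate 5 was low for Cdc6 (-4.71, next -4.28).

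After injury, wild-type replicate 2 was low for Dnmt1 (-2.06, next 0.55). Myd88KO replicate 5 was low for Chaf1a (-1.92, next -0.02), and Myd88KO replicate 1 was high on the brightest Pold3 probe (1.94, next 1.43).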

How the results depend on the processing

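The count of member probes called after injury was 30 in wild-type tracheas and stayed within 1.5 times of this under every other setting tried except leaving out single tracheas, which gave 18 to 39. The replicate block gave 36, and the same 30 probes were among them. By the correlation of their deviations, replicate numbers, which equal the slide, paired the arrays between uninjured genotypes and not in every pair of the other comparisons. The block left 0 calls in Myd88KO tracheas and for the difference of responses, and 2 between genotypes with and without injury. In Myd88KO tracheas the count of 0 became 1 with normexp background correction, 2 with scanning day as a term, 29 with array weights and 7 at an adjusted p of 0.05, and 0 to 17 when single tracheas were left out, the highest without injured Myd88KO replicate 5 and 1 without uninjured wild-type replicate 3. Between injured genotypes the 2 Pold3 calls became 0 when only the groups compared entered the fit and 0 by the methods' one-way test, and 1 to 2 when single tracheas were left out. In 6 such fits, without injured wild-type replicate 2, 4 or 5 or injured Myd88KO replicate 2, 3 or 4, the call of A_51_P490397 was lost. Between uninjured genotypes the count was 2 throughout, and for the difference of responses it was 0 throughout. No called difference of a member reversed. The cause of these changes was not tested. Members dimmer than background on most arrays, Orc1 and Ccne2, are limited by signal.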
